A study of Mus musculus with 59 samples.

Results

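The VH gene repertoire of bone marrow pro‐B cells was compared between mice homozygous for the Igh Δ890 allele and Igh+/+ mice. The Δ890 allele lacks a distal stretch of the VH gene cluster on chromosome 12. The libraries were chosen by genotype and experiment series, and they comprised 3 Igh Δ890/Δ890 and 3 Igh+/+ libraries, thus 6 of the 48 VDJ‐seq libraries of the series, in which 59 libraries were given in all. Pro‐B cells were sorted ex vivo by flow cytometry, and each library was made from 1 mouse. No treatment was given, and the labels state no age. The deletion was introduced into the C57BL/6 allele by targeting hybrid C57BL/6 × 129/Sv ES cells. It was generated in the mouse between a lox71 and a loxP site by Cre expressed from the Meox2 gene, and a promoter was then removed by Flpe. A blasticidin resistance gene without a promoter stayed at the deletion point, so that the allele differs from the wild type by this insert as well as by the missing DNA. The paper states that its mutant strains were backcrossed to C57BL/6.

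Pro‐B cells assemble the immunoglobulin heavy chain gene in steps. The RAG recombinase first joins a DH to a JH segment on both alleles and then joins one of many VH genes to the DJH element. The VH genes extend over a long region, and the locus has to contract for the distal genes to reach the DJH end, a process that depends on Pax5 and on loop extrusion by cohesin. The large VH1 (J558) family lies mostly in the distal part, whereas the VH5 and VH2 families lie next to the DH segments. VDJ‐seq counts unique joints in genomic DNA, so that the usage of a VH gene is the percentage of all VDJH and DJH joints that carry this gene.

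The 6 libraries list 240 VH gene names, of which 183 have a position in the mouse reference annotation (GRCm38, mm10) and 57 do not. The placed genes were grouped by their order. The flanks reach as far as the study saw reduced recombination in these libraries, except that VH1-86, which was at 0 in every library, is counted with the upstream flank as its last gene. Thus low usage in the flanks and a step at their borders are partly given by the grouping. The flank sums are described without a test, and the p-values of single flank genes are no separate evidence of low usage. From the DJH end these groups were the proximal genes (VH5-1 to VH5-19, 32 genes), the middle genes (VH7-1 to VH3-8, 31 genes) and the VH1‐side middle genes (VH8-1 to VH1-26, 43 genes). They were followed by the downstream flank (VH1-27 to VH1-47, 21 genes), the 49 genes of the deleted region (VH8-3 to VH1-79) and the upstream flank (VH1-80 to VH1-86, 7 genes). The deleted genes span 885 kb (chromosome 12, 115003418 to 115888389) and consist of 35 VH1 and 14 VH8 genes. The number of joints behind a value is not in the files used here. Depth and counting error are therefore unknown. All SD are spreads between mice, whereas the SE of single genes also draw on the variance of other genes.

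The deletion was visible in each library labelled with it. The 49 deleted genes summed to 9.29, 10.5 and 9.85% of the joints in the Igh+/+ libraries and to 0.121, 0.158 and 0.142% in the Igh Δ890/Δ890 libraries. Of these genes, 22 were above 0 in every Igh+/+ library and at 0 in every mutant library. VH1-72 (V186.2), known for its part in the response of C57BL/6 mice to the hapten NP, was one of them, with 0.678, 0.729 and 0.632% of the joints in Igh+/+ pro‐B cells. Of the 49 deleted names, 15 were above 0 in at least 1 mutant library and 6 of them in every mutant library. The 5 highest of these made up 89.7% of the remainder, led by VH1-64 with 0.0567, 0.0526 and 0.0526% of the joints, compared with 0.567, 0.696 and 0.677% in Igh+/+ pro‐B cells. VH1-69 (0.0223, 0.0375 and 0.0406%) and VH1-56 (0.0183, 0.0288 and 0.0177%) followed. The VH1 genes are close paralogs, and whether joints of other VH1 genes were assigned to these names was not tested.

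**Figure D1:**
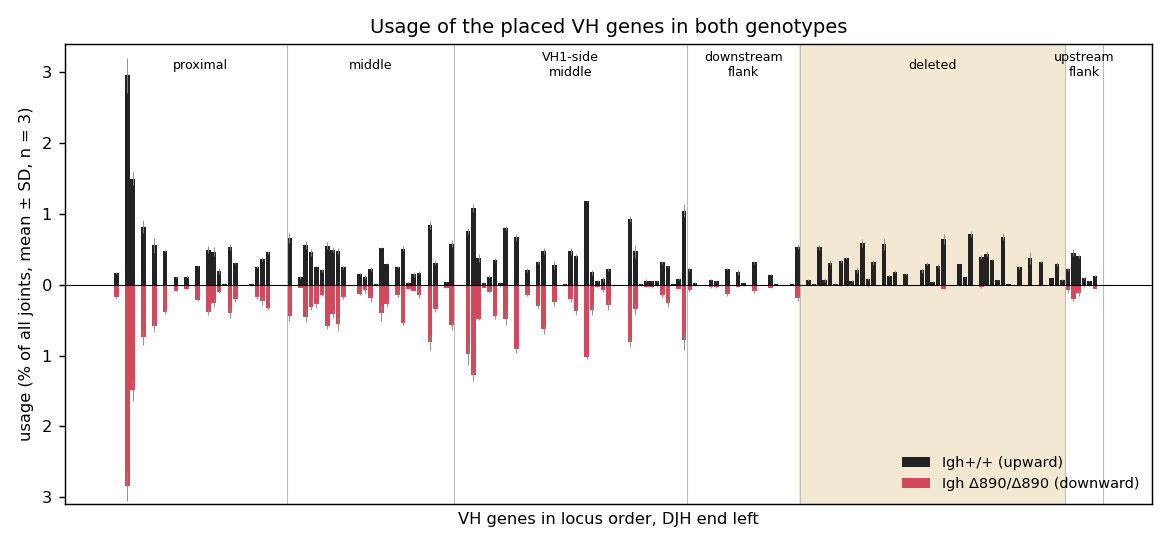
Usage of the 183 placed VH genes in locus order from the DJH end (left), as a percentage of all joints, for Igh+/+ (bars upward) and Igh Δ890/Δ890 (bars downward) pro‐B cells, with means and SD of 3 libraries each. The shaded block holds the 49 deleted genes, where the downward bars sum to at most 0.158% in a library, and the bars on both sides of it are shorter in the mutant.

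VDJH joints made up 44.2, 45.5 and 43.3% of all joints in Igh+/+ libraries and 28.4, 31.6 and 27.4% in Igh Δ890/Δ890 libraries. All mutant libraries were thus below all Igh+/+ libraries. The exact permutation test, which was two‐sided throughout, gave p = 0.1, below which a comparison of 3 with 3 libraries cannot go, so that none of the sums compared in this way could pass 0.05. The DJH joints, which are the remainder, made up 55.7% ± 1.11 and 70.9% ± 2.18 (SD, n = 3). The mean of the VDJH joints differed by −15.2 points, of which −9.75 points were at deleted genes and −4.85 points at retained genes with a position. The 134 placed genes outside the deletion summed to 33.2, 33.2 and 31.8% of the joints in Igh+/+ and to 27.2, 30.3 and 26.2% in mutant pro‐B cells. This is 85.2% of the Igh+/+ mean, without overlap (exact permutation test, p = 0.1). Against 17 Igh+/+ libraries of all 5 experiment series, which include these 3 and ranged from 25.4 to 53.5%, the mutant libraries overlapped (exact permutation test, p = 0.108). The repertoire was also narrower in the mutant. The effective number of VH genes, which is the exponential of the Shannon entropy of their shares, was 92.0 ± 2.30 in Igh+/+ and 57.2 ± 2.69 in mutant libraries (SD, n = 3), and 58.3 ± 1.5 and 50.8 ± 2.45 when only the retained genes were counted (exact permutation test, p = 0.1 for both). The 5 most used genes of a library held 16.7 to 18.3% of the VDJH joints in Igh+/+ and 24.0 to 27.7% in mutant libraries.

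Usage was lower on both sides of the deletion, at 36.6% of the Igh+/+ mean in the upstream flank and 35.4% in the downstream flank. The upstream flank summed to 1.41, 1.38 and 1.24% of the joints in Igh+/+ and to 0.450, 0.615 and 0.409% in mutant pro‐B cells. The downstream flank summed to 1.69, 1.89 and 1.82% and to 0.566, 0.792 and 0.558%. In both flanks the highest mutant library lay below the lowest Igh+/+ library.

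The VH1‐side middle group as a whole was at 96.0% of the Igh+/+ mean. It summed to 10.9, 11.7 and 11.4% in Igh+/+ and to 10.01, 12.1 and 10.6% in mutant pro‐B cells, and these libraries overlapped (exact permutation test, p = 0.6). The middle genes (8.30, 8.53 and 7.76% against 6.77, 8.20 and 6.70%) overlapped as well (p = 0.2, exact permutation test). The proximal genes summed to 10.9, 9.70 and 9.59% in Igh+/+ and to 9.42, 8.62 and 7.94% in mutant pro‐B cells. This is 86.1% of the Igh+/+ mean, and the highest mutant library lay just below the lowest of the 3 Igh+/+ libraries (exact permutation test, p = 0.1), although it was within the range of the 17 Igh+/+ libraries (8.13 to 12.4%).

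**Figure D2:**
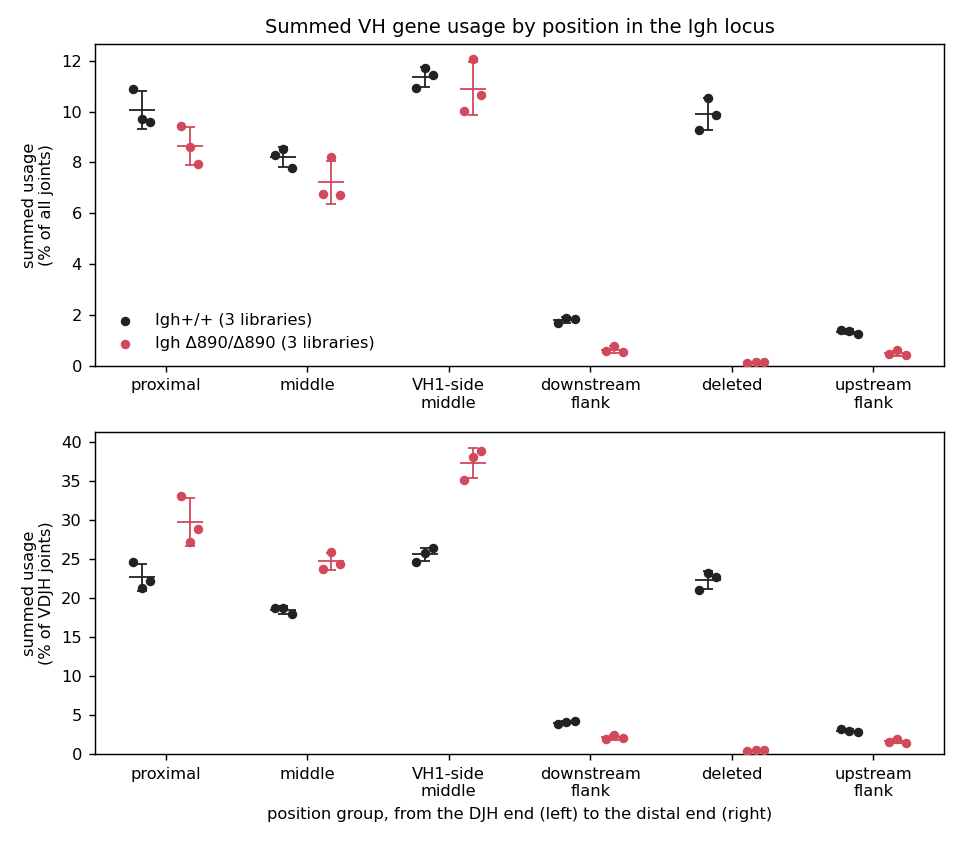
Summed usage of each position group as a percentage of all joints (top) and of VDJH joints (bottom), with 1 point per library and the mean and SD of 3 libraries per genotype. Both flanks are lower in the mutant on both scales, whereas the proximal, middle and VH1‐side middle groups are lower on average at the top and higher at the bottom.

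The direction depended on the scale for the groups away from the deletion. The share of VDJH joints is the usage divided by the summed VH percent of a library, and it becomes larger for all retained genes when other genes are lost. On this scale, the VH1‐side middle group was at 25.6% ± 0.872 in Igh+/+ and 37.4% ± 1.93 in mutant libraries, the middle group at 18.5% ± 0.475 and 24.7% ± 1.11, and the proximal group at 22.7% ± 1.74 and 29.8% ± 3.02 (SD, n = 3). None of these groups overlapped between the genotypes (exact permutation test, p = 0.1 each). Both flanks were lower on this scale too. The downstream flank made up 4.07% ± 0.213 and 2.18% ± 0.286 and the upstream flank 3.03% ± 0.171 and 1.67% ± 0.240 of the VDJH joints (SD, n = 3). Among the 17 Igh+/+ libraries, the downstream flank held 3.37 to 4.35% and the upstream flank 2.86 to 6.0% of the VDJH joints, and all 3 mutant libraries were below these ranges.

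Single genes were tested with limma on log2(usage + 0.01), over the retained genes with a mean usage of at least 0.01%. As a percentage of all joints, 43 of 89 genes (48.3%) were lower and 7 (7.87%) were higher in Igh Δ890/Δ890 pro‐B cells at an adjusted p under 0.05, with a median log2 change of −0.40. The values of the genotypes were fully separated for 58 of these genes (65.2%), and 49 of them (55.1% of those tested) were lower in the mutant. The flank genes are part of the 89. Outside the flanks, 28 of 73 genes were lower and 7 higher at the same threshold. Without the second Igh+/+ library, 28 genes were lower and 4 higher, and 4 were higher without the first. For the share of VDJH joints, 14 of 93 genes (15.1%) were lower and 37 (39.8%) were higher, with a median of 0.18, and 56 genes (60.2%) were fully separated. When the deleted genes were left out of the sum in both genotypes, which takes away their loss as a source of higher shares, 29 of 94 genes (30.9%) were lower and 15 (16.0%) higher, with a median of −0.19.

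All 6 tested genes of the upstream flank were lower as a percentage of all joints (48.3% over all 89 genes), with log2 changes between −1.83 and −0.93. As the study set the end of the flank on usage in these libraries, the count and the p-values of its genes are partly given by the grouping. VH1-86 was listed at 0 in every library. VH1-82, 64.1 kb from the nearest deleted gene (chromosome 12, 115952538 to 115952831, mm10), accounted for 0.396, 0.424 and 0.383% of the joints in Igh+/+ and 0.0991, 0.165 and 0.0711% in mutant pro‐B cells. Its log2 change was −1.83 (SE 0.19, adjusted p = 3.56e-18, limma), and as a share of VDJH joints it was −1.30 (adjusted p = 2.94e-05, limma). VH1-81, the most used gene of this flank in 3 of 3 Igh+/+ libraries and 31.9 kb from the deletion, was at 46.0% of the Igh+/+ mean, with 0.505, 0.430 and 0.416% against 0.181, 0.233 and 0.207% of the joints. VH1-80, the nearest gene at 24.0 kb, was at 0.222, 0.241 and 0.201% in Igh+/+ and 0.0632, 0.124 and 0.0506% in mutant pro‐B cells. In these 3 genes the genotypes were well separated, and the second mutant library was the highest of the mutant libraries. The little used VH1-84 had the largest relative loss of the flank, to 20.6% of the Igh+/+ mean. Its mutant values of 0.0201, 0.00667 and 0.00482% differed widely, with the first library well above the others. VH1-85, at 112 kb, was at 0.127, 0.134 and 0.109% against 0.0560, 0.0601 and 0.0627% of the joints, and its share of VDJH joints did not pass the threshold (log2 change −0.42, adjusted p = 0.0894, limma). Taken over the retained genes alone, its share passed as lower (log2 change −0.78).

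In the downstream flank, 9 of 10 tested genes were lower and none was higher (48.3% and 7.87% over all 89 genes), with log2 changes between −2.02 and −0.59. The end of this flank was likewise set on these libraries, so that nothing is read from this count, and the p-values of its genes have the same limit. VH1-47, which lies only 12.0 kb from the deleted genes (chromosome 12, 114991108 to 114991401), was the most used of them and accounted for 0.505, 0.539 and 0.571% of the joints in Igh+/+ and 0.168, 0.240 and 0.154% in mutant pro‐B cells (limma, log2 change −1.497, SE 0.17, adjusted p = 1.43e-15). VH1-39, at 88.5 kb, went from 0.304, 0.297 and 0.343% to 0.0812, 0.115 and 0.0695%. VH1-36, at 123 kb, had the largest log2 change of the 89 tested genes, from 0.137, 0.212 and 0.179% to 0.0366, 0.0350 and 0.0337%, which is 19.95% of the Igh+/+ mean (log2 change −2.02, SE 0.23, adjusted p = 3.08e-15, limma). VH1-34, at 152 kb, was lower by less, with 0.2003, 0.241 and 0.226% against 0.118, 0.157 and 0.110% (log2 change −0.76, adjusted p = 0.000562, limma), and its shares of VDJH joints overlapped between the genotypes. Taken over the retained genes alone, its share passed as lower (log2 change −0.56). The loss was again strong at the far end of the flank, where the annotated pseudogene VH1-27 (199 kb) fell from 0.197, 0.238 and 0.215% to 0.0488, 0.103 and 0.0731%. A sequence annotated as a pseudogene, VH1-32, was the gene that did not pass (log2 change −0.59, adjusted p = 0.0642, limma).

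Distance alone did not order the changes. In windows downstream of the deleted genes, the median log2 change in percent of all joints was −1.63 within 100 kb (3 genes), −0.96 from 100 to 200 kb (7 genes), −0.43 from 200 to 300 kb, thus just beyond the flank, where 6 of 10 genes were lower, and −0.16 from 300 to 450 kb (8 genes). It was 0.22 from 450 to 700 kb, where 5 of 15 genes were higher and 3 were lower. Farther away it was −0.27 from 700 to 1100 kb (8 of 21 genes lower and 1 higher) and −0.42 beyond 1100 kb (10 of 19 genes lower and none higher). Over all 89 genes the median was −0.40, with 48.3% lower and 7.87% higher, and the differences between windows and all genes were not tested. Over the 83 tested genes on this side, Spearman's rho between distance and change was 0.22 (Pearson's r 0.22), and over the 73 genes outside the flanks it was −0.11 (Pearson's r −0.14). These values describe genes that share the same 6 libraries.

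**Figure D3:**
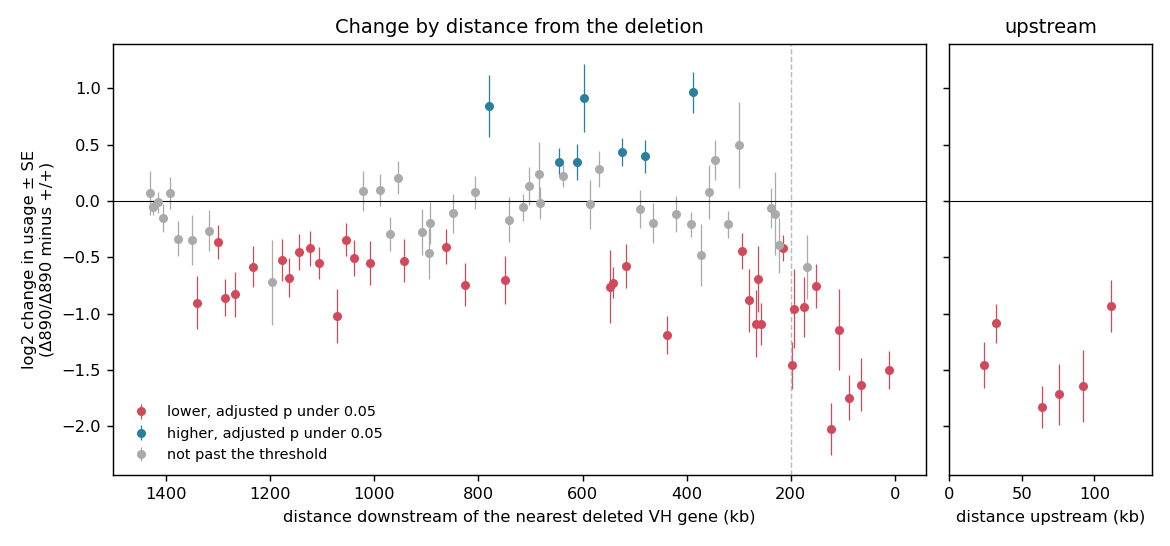
Log2 change in usage as a percentage of all joints, with its limma SE, against the distance in kb of each tested gene from the nearest deleted gene, downstream (left, 83 genes, DJH end at the left edge) and upstream (right, 6 genes). Genes within 200 kb (dashed line) lie between −2.02 and −0.59 downstream and between −1.83 and −0.93 upstream, and the 7 higher genes lie between 387 and 780 kb.

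Recombination is directed by a signal sequence next to each VH gene, which consists of a heptamer, a spacer and a nonamer. These signals are shown for 4 flank genes that were lower and for a gene of the same family that was higher, VH1-12, with VH15-2 and VH10-3 as examples of other families that were lower and higher. They were read from the mm9 genome on the minus strand of chromosome 12, directly after the annotated gene end, and are given 5′ to 3′ with the heptamer and nonamer in capitals. The nonamer was placed after a spacer of 22, 23 or 24 bases, wherever it came closest to the consensus ACAAAAACC, which gave 22 bases for the VH1 genes and 23 for VH15-2 and VH10-3.
VH1-85 (lower, chr12:117238201-117238238): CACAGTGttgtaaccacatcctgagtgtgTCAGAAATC
VH1-84 (lower, chr12:117218875-117218912): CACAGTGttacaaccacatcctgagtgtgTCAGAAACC
VH1-83 (lower, chr12:117201990-117202027): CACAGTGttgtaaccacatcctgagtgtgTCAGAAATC
VH1-42 (lower, chr12:116175286-116175323): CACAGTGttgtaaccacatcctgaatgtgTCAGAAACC
VH1-12 (higher, chr12:115854023-115854060): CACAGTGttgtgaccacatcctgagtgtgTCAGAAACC
VH15-2 (lower, chr12:115802750-115802788): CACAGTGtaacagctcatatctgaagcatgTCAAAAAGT
VH10-3 (higher, chr12:115761613-115761651): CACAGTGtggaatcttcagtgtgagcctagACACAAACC
All 7 genes have the heptamer CACAGTG, which directly follows 22 of the 37 VH genes named in the mm9 annotation (59.5%, read on the strand of the gene at this 1 place). VH1-84 and VH1-12 have the same heptamer and nonamer and differ at 3 of 38 bases, all in the spacer, while VH1-84 was lower and VH1-12 higher in the mutant. The signals of VH1-85 and VH1-83 differ from that of VH1-12 at 2 bases each, 1 of them in the nonamer.

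Around the middle of the cluster, several genes were used more often in the mutant even as a percentage of all joints. VH1-12, at 387 kb from the deletion (chromosome 12, 114615850 to 114616143), rose from 0.149, 0.217 and 0.157% in Igh+/+ to 0.276, 0.427 and 0.352% in mutant pro‐B cells (limma, log2 change 0.96, SE 0.18, adjusted p = 1.17e-06), which is 2.01‐fold. No other VH1 gene passed the threshold as higher on this scale. The lowest mutant library lay above the highest Igh+/+ library, and the same held for the other 6 higher genes. VH6-4 (0.0149, 0.0136 and 0.0311% against 0.0409, 0.0451 and 0.0482%) and VH7-4 (0.0323, 0.0317 and 0.0245% against 0.0603, 0.0701 and 0.0530%) rose 2.25‐fold and 2.07‐fold from a low level.

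The other genes that rose, among the 7.87% of genes that were higher, belong to the small families VH10, VH13 and VH6. Both tested genes of the VH10 family, VH10-1 (0.674, 0.622 and 0.723% against 0.868, 0.963 and 0.909%) and VH10-3 (0.454, 0.446 and 0.519% against 0.565, 0.624 and 0.691%), were higher, with log2 changes of 0.44 and 0.40 (adjusted p = 0.00173 and 0.0125, limma). VH13-2 rose from 0.709, 0.777 and 0.796% to 0.804, 1.12 and 1.01% (log2 change 0.35, adjusted p = 0.00993, limma) and VH6-3 from 0.318, 0.378 and 0.431% to 0.450, 0.503 and 0.480% (log2 change 0.35, adjusted p = 0.0483, limma). Of up to 13 alternatives, the call was lost under 8 for VH6-3, under 4 each for VH10-3 and VH13-2, under 1 each for VH10-1 and VH6-4, and under none for VH1-12. Of the other tested VH6 genes, VH6-6 was at 0.338, 0.364 and 0.367% against 0.403, 0.486 and 0.424%, without overlap, and did not pass as a percentage of all joints (log2 change 0.29, adjusted p = 0.111, limma), but passed as higher as a share of VDJH joints (adjusted p = 5.44e-06, limma). The libraries of VH6-5 overlapped between the genotypes. VH6-7 was lower (log2 change −0.76, adjusted p = 0.037, limma), a call that was lost under 5 alternatives and was not made for its share of VDJH joints (adjusted p = 0.345, limma). These 3 genes are named outside the rule for named genes, after their values were seen. VH12-3, which codes for antibodies to phosphatidylcholine in B-1 cells, was at 1.10, 1.14 and 1.02% against 1.23, 1.37 and 1.22% and did not pass the threshold on this scale (log2 change 0.22, adjusted p = 0.0558, limma). Its share of VDJH joints rose from 2.50, 2.50 and 2.36% to 4.33, 4.32 and 4.47% (log2 change 0.83, adjusted p = 2.28e-06, limma). VH11-2, the other gene known for this specificity, likewise passed as a share and not as a percentage of all joints, with 1.19, 1.03 and 1.00% against 1.81, 2.09 and 1.78% of the VDJH joints (log2 change 0.81, adjusted p = 1.60e-05, limma).

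Other genes of the same stretch were lower as a percentage of all joints or did not pass. VH15-2, the used gene of its family, lies 438.5 kb from the deletion and was at 0.530, 0.458 and 0.422% in Igh+/+ and 0.226, 0.228 and 0.154% in mutant pro‐B cells (limma, log2 change −1.19, SE 0.17, adjusted p = 2.14e-10). It was lower as a share of VDJH joints too (log2 change −0.62, adjusted p = 0.00159, limma). VH8-2, between VH10-1 and VH6-4, was at 0.774, 0.829 and 0.789% against 0.496, 0.561 and 0.393% (log2 change −0.73, adjusted p = 1.36e-06, limma), although its share of VDJH joints overlapped between the genotypes. Taken over the retained genes alone, its share passed as lower (log2 change −0.50, adjusted p = 0.000834, limma). VH1-22, which was singled out after its values were seen, fell from 0.309, 0.344 and 0.298% to 0.147, 0.180 and 0.111% at a distance of 257 kb, thus beyond the flank (log2 change −1.09, adjusted p = 8.33e-08, limma). VH1-23, between VH1-22 and VH1-26 and also singled out afterwards, was at 0.269, 0.264 and 0.257% against 0.211, 0.327 and 0.232%, and the genotypes overlapped, although its share of VDJH joints passed as higher (log2 change 0.54, adjusted p = 0.00338, limma). VH1-26 at 215 kb, the third most used gene of the VH1‐side middle group in Igh+/+ pro‐B cells by the mean, was reduced to 75.1% of that mean (log2 change −0.42, adjusted p = 0.0015, limma). VH1-11, the most used VH1 gene in Igh+/+ pro‐B cells, was at 1.18, 1.17 and 1.18% against 1.04, 0.986 and 1.04% and did not pass (log2 change −0.21, adjusted p = 0.0847, limma), while its share of VDJH joints passed as higher (log2 change 0.40, adjusted p = 0.00273, limma). When the shares were taken over the retained genes alone, neither VH1-23 nor VH1-11 passed (adjusted p = 0.318 and 0.843, limma). In the VH1‐side middle group as a whole, 7 of 20 VH1 genes were lower and 1 was higher, whereas 3 of 11 genes of other families were lower and 5 were higher, beside 48.3% lower and 7.87% higher over all 89 genes tested.

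In the middle group, 9 of 24 genes were lower and VH7-4 was the gene that was higher, beside 48.3% lower and 7.87% higher over all 89 genes tested. The 4 tested VH14 genes were among the lower genes of this group, with log2 changes of −1.02 to −0.53. VH14-4, the most used of them by the Igh+/+ mean but not in most single libraries, went from 0.238, 0.266 and 0.261% to 0.139, 0.180 and 0.130%. VH7-1 (T15), known from antibodies to phosphorylcholine but annotated as a pseudogene in the table used here, was at 0.737, 0.598 and 0.636% against 0.442, 0.521 and 0.378% (log2 change −0.55, adjusted p = 0.000574, limma). Neither VH14-4 nor VH7-1 passed the threshold as a share of VDJH joints, whereas both passed as lower when the shares were taken over the retained genes alone (adjusted p = 0.00602 and 0.0223, limma). VH3-6 (0.786, 0.896 and 0.841% against 0.688, 0.906 and 0.844%) and VH3-8 (0.525, 0.606 and 0.606% against 0.517, 0.648 and 0.553%), the most used VH3 genes by the Igh+/+ mean, overlapped between the genotypes as a percentage of all joints. Both passed as higher as a share of VDJH joints (log2 changes 0.55 and 0.58, adjusted p = 0.000399 and 0.000213, limma). When the shares were taken over the retained genes alone, neither passed (adjusted p = 0.172 and 0.109, limma).

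In the proximal group, the most used genes did not pass the threshold as a percentage of all joints. VH5-2 (VH81X), long known as the gene that pro‐B cells rearrange most, accounted for 3.24, 2.80 and 2.83% of the joints in Igh+/+ and 3.09, 2.71 and 2.72% in mutant pro‐B cells (limma, log2 change −0.06, SE 0.07, adjusted p = 0.506). VH2-2 was at 1.61, 1.44 and 1.45% against 1.66, 1.39 and 1.42%, and VH5-4 at 0.921, 0.758 and 0.774% against 0.838, 0.751 and 0.627%. The libraries of the genotypes overlapped for all 3 genes. The share of VH5-2 in the VDJH joints rose from 7.33, 6.16 and 6.53% to 10.9, 8.59 and 9.94% (log2 change 0.55, adjusted p = 0.000399, limma) and that of VH2-2 from 3.64, 3.16 and 3.36% to 5.84, 4.40 and 5.17%. When the shares were taken over the retained genes alone, neither gene passed (adjusted p = 0.151 and 0.0932, limma). Of the 18 proximal genes tested as a percentage of all joints, 9 were lower and none was higher. Beside this, 48.3% were lower over all genes tested, flanks included, and 28 of 73 outside the flanks. The difference was not tested. The lower genes comprised 6 of 10 VH5 and 3 of 8 VH2 genes.

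Summed by family, VH1 genes made up 18.1% ± 0.963 of the joints in Igh+/+ and 7.09% ± 0.911 in mutant libraries, and VH8 genes 2.67% ± 0.133 and 0.485% ± 0.0844 (SD, n = 3). These 2 families contain the deleted genes. The retained VH1 genes alone summed to 8.95, 9.80 and 9.28% against 5.83, 7.45 and 6.14% of the joints, which is 69.2% of the Igh+/+ mean. Their share of VDJH joints was 20.3, 21.6 and 21.5% against 20.5, 23.6 and 22.4%, and these libraries overlapped. VH14 (61.9% of the Igh+/+ mean), VH15 (43.1%), VH7 (79.7%), VH2 (83.2%) and VH5 (85.9%), which have no deleted members, were lower as a percentage of all joints in each mutant library than in every Igh+/+ library.

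Families VH6, VH10, VH12 and VH13 were higher in each mutant library than in every Igh+/+ library as a percentage of all joints. VH10 summed to 1.15, 1.09 and 1.26% of the joints in Igh+/+ and 1.44, 1.62 and 1.62% in mutant pro‐B cells. The values were 0.824, 0.922 and 0.943% against 1.01, 1.16 and 1.08% for VH6, and 1.22, 1.27 and 1.11% against 1.29, 1.49 and 1.29% for VH12. The values of VH3, VH4, VH9 and VH11 overlapped between the genotypes. Each of these sums was compared by an exact permutation test, in which the families without overlap had p = 0.1 (0.136 after adjustment over 15 families). As a share of VDJH joints, VH10 was 2.04‐fold, VH13 1.95‐fold and VH6 1.84‐fold higher, while VH14 overlapped and VH15 was lower, at 65.4% of the Igh+/+ mean.

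**Figure D4:**
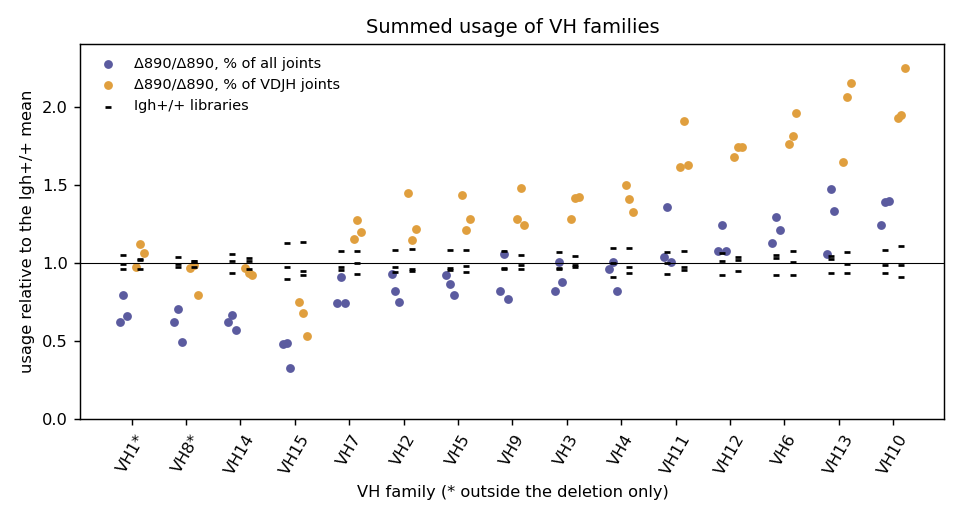
Summed usage of 15 VH families in each Igh Δ890/Δ890 library relative to the mean of the 3 Igh+/+ libraries (each shown as a dash), as a percentage of all joints and of VDJH joints. For VH1 and VH8 only genes outside the deletion are summed. As a percentage of all joints, the mutant libraries of VH6, VH10, VH12 and VH13 lie above the Igh+/+ libraries, and those of VH14 and VH15 lie below them.

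Joints at retained VH genes annotated as pseudogenes, VH7-1 included, summed to 3.002, 2.84 and 2.70% of all joints in Igh+/+ and to 2.19, 2.58 and 2.06% in mutant pro‐B cells. Of the VDJH joints they made up 6.79, 6.26 and 6.24% against 7.69, 8.18 and 7.50%. The genotypes did not overlap on either scale (exact permutation test, p = 0.1 for both), with lower values in the mutant on the first and higher values on the second. Outside the flanks, 3 of 11 tested pseudogenes and 25 of 62 other genes were lower as a percentage of all joints, with median log2 changes of −0.39 and −0.21. None of these pseudogenes and 7 of the other genes were higher. Over all 89 genes tested, 48.3% were lower and 7.87% higher, so that few or no higher genes among 11 are no result about pseudogenes.

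The 57 names without a position summed to 1.68, 1.71 and 1.56% of the joints in Igh+/+ and to 1.09, 1.15 and 1.02% in mutant pro‐B cells, and to 3.73% ± 0.102 and 3.74% ± 0.0973 of the VDJH joints (SD, n = 3). Of these names, 6 were above 0 in every Igh+/+ and at 0 in every mutant library. The most used of the 57, VH1-87, was at 0.515, 0.492 and 0.511% against 0.361, 0.417 and 0.393% of the joints.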

How the data were processed

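VDJ‐seq libraries of genomic DNA from sorted pro‐B cells of 3 Igh+/+ and 3 Igh Δ890/Δ890 mice were analysed. The authors sheared the DNA, ligated adapters with molecular identifiers, captured joints by extension from JH primers and processed the paired-end reads with a published VDJ‐seq pipeline, whose versions are not given in the sources used here. R 3.3.3 is named by the submitters' processing notes. The deposited value of each VH gene is a percentage of all unique joints, normalized by the authors, and is given without counts.

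Shares were computed by division by the summed VH percent of a library or by the sum of the placed genes outside the deletion. Family is the first number of a gene name. Positions are from RefSeq (GRCm38), whereas the signal sequences are from the mm9 genome, and no coordinate was converted. Sums were tested by two‐sided exact permutation of the genotype labels, for which there are 20 arrangements. Single genes were fitted with limma 3.58.1 in R 4.3.3 (lmFit, then eBayes with a trend) to log2(usage + 0.01), with Benjamini-Hochberg adjustment over all genes tested and a threshold of 0.05. This scale understates changes of little used genes. Genes could be named that lay in a flank, were among the 3 most used of a position group or the most used of a family, or were among the 8 largest rises or falls past the threshold without overlap on either scale, and so could deleted genes with a value above 0 in the mutant. The members, lists and tests were chosen with earlier results of these data known. VH1-22, VH1-23, VH6-5, VH6-6 and VH6-7 were named outside this rule. Alternatives were other pseudocounts (0.001 and 0.1), filters (none and 0.05%), no trend, single libraries left out, and the Igh+/+ libraries of all 5 experiment series, of which 17 were used. Left out were 3 libraries, as the deleted genes summed to under 1% in 2 of them, against their label, and 2 hold the same values as a library of another genotype (1 library is of both kinds). Tests with the names that have no position were added after seeing the data.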

Additional observations from a re-analysis of the deposited data

How the results depend on the processing

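The depth of the libraries is unknown, and with 3 libraries for each genotype the permutation tests could not pass the threshold. No paired analysis was possible because the labels carry no replicate numbers shared by the genotypes. None of the genes called as a percentage of all joints changed direction under an alternative. With single libraries left out, the count of lower genes ranged from 28, without the second Igh+/+ library, to 49, without the second mutant library, and that of higher genes from 4, without the first or second Igh+/+ library, to 8, without the first mutant library. With the 17 Igh+/+ libraries in 1 fit with the series as a term, 30 genes were lower and 3 higher, and with the names without a position included, 52 were lower and 7 higher. Relative to the summed proximal genes instead of all VDJH joints, 25 genes were lower and 14 higher, and 3 of the 51 genes called as a share changed direction.

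Against the 17 Igh+/+ libraries, of which 14 belong to other experiment series, some differences passed 0.05 in the exact permutation test and those of the retained sum (p = 0.108), of the middle group (p = 0.192) and of the VH1‐side middle group (p = 0.532) as a percentage of all joints did not. VDJH joints were lower by a difference of −17.7 points (p = 0.0158, exact permutation test). This test did not take the series into account, although the mutant libraries all belong to the series of the 3 Igh+/+ libraries used above. Within that series the exact permutation test gave p = 0.1. As a percentage of all joints, the differences were −1.54 for the proximal group, −1.20 for the downstream flank and −1.25 for the upstream flank. As a share of VDJH joints, they were 7.45 for the proximal, 6.36 for the middle and 12.2 for the VH1‐side middle group, −1.71 for the downstream and −1.91 for the upstream flank. The effective number of genes differed by −34.8, and by −7.53 over the retained genes. The differences of the flank sums are given without a test.

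Among the single genes named, those that changed sign under an alternative had not passed the threshold on the scale concerned. With 1 library left out at a time, the log2 change as a percentage of all joints ranged from −0.11 to 0.050 for VH3-8, from −0.14 to 0.057 for VH3-6, from −0.0910 to 0.040 for VH2-2, from −0.12 to 0.013 for VH5-2, from −0.24 to 0.064 for VH1-23 and from −0.19 to 0.092 for VH6-5. As a share it ranged from −0.31 to 0.0095 for VH1-32, from −0.039 to 0.13 for VH7-1 and from −0.93 to 0.093 for VH6-7. Relative to the proximal sum, VH1-26 was at −0.21, VH9-3 at −0.20, VH4-1 at −0.13 and VH7-1 at −0.34.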
